A study of Danio rerio with 6 samples.

Results

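The genes described here are 9 chaperones and disulfide isomerases of the endoplasmic reticulum (ER): hsp90b1 (ENSDARG00000003570), hyou1 (ENSDARG00000013670), dnajb11 (ENSDARG00000015088), dnajc3a (ENSDARG00000041110), dnajc3b (ENSDARG00000017874), sdf2l1 (ENSDARG00000035631), calr (ENSDARG00000076290), pdia4 (ENSDARG00000018491) and pdia6 (ENSDARG00000009001). They were taken by gene identifier from a table of 27456 zebrafish genes, and all 9 passed the filter on low counts, with 614 or more counts in every library. They were chosen for their lower values in the morphant libraries, so their difference between the groups is given as a description with no test. In an earlier look at these data hsp90b1, pdia4 and pdia6 stood among the 10 smallest edgeR p-values of genes with a symbol, and the others were added once their values had been seen.

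The ER is where secreted and membrane proteins are folded. Hsp70 and Hsp90 class chaperones bind unfolded chains there, J-domain proteins and nucleotide exchange factors run their ATP cycle, lectin chaperones hold newly glycosylated chains, and protein disulfide isomerases form and reshuffle disulfide bonds. In vertebrate cells many of these genes are induced together when unfolded protein builds up, through the sensors Atf6, Ire1 and Perk and the transcription factor Xbp1. Cells that secrete much protein, such as those of glands and notochord and some blood cells, hold high levels of them.

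RNA came from cells sorted for green fluorescence out of zebrafish embryos at 24 hours post fertilization (hpf). All embryos carried tg(myl7::gfp), a transgene that makes green fluorescent protein under the promoter of myl7, a myosin light chain gene of the heart. Morphant embryos (3 libraries) had received 2 nl of a 0.7 mM Gata4 morpholino, an antisense oligomer against the heart transcription factor gene gata4, and the other embryos were wildtype (3 libraries). The labels do not say whether wildtype embryos received a control injection. Each pool held about 200 embryos, and the labels do not tie replicates to separate clutches, so a p-value here reflects only how these samples vary, part of which may be technical. The oligomer defines the morphant group and is shown for that reason, in the 5′ to 3′ direction with no base capitalised.
Gata4 morpholino: tccacaggtgagcgattattgcttc

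Total counts ranged from 12574486 to 37906530 over the morphant libraries and from 15302189 to 21119399 over the wildtype libraries. An mRNA-Seq kit was used for morphant replicate 1 and wildtype replicates 1 and 2, and a TruSeq kit for the remaining libraries. The labels call the cells sorted cardiomyocytes, but leukocyte markers were also present, and their sum exceeded that of cardiomyocyte markers in every library. The lists differ in size, with 29 leukocyte and 11 cardiomyocyte genes, so these sums do not say which cell type gave more RNA. The 29 leukocyte markers summed to 1817, 18889 and 4409 CPM, which are counts relative to each library's scaled total, in morphant replicates 1 to 3 and to 10974, 17082 and 21449 CPM in wildtype replicates 1 to 3. The 11 cardiomyocyte markers summed to 1618, 1948 and 1843 CPM in the morphant libraries and to 6532, 3768 and 3287 CPM in the wildtype libraries. For leukocyte markers morphant replicate 2 was thus within the range of the wildtype libraries, and the other morphant libraries were below it. The gata4 transcript was not analysed here, so the knockdown was not checked on its own RNA. In bulk RNA of this kind, fewer cells of a type and less RNA per cell cannot be told apart.

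For all 9 genes the highest morphant library lay below the lowest wildtype library. By the same count, 5.78% of the 18033 genes tested were lower in every morphant library, and since the 9 genes were chosen on this contrast nothing is read from the comparison. Their log2 fold changes (morphant minus wildtype, from a fit with a kit term) lay between -2.25 and -1.51, with a median of -1.55 where all genes tested had 0.07.

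The ATP-driven chaperones hsp90b1 and hyou1 had the lowest log2 fold changes of the 9 in the fit with a kit term. Without the kit term pdia4 (-1.51) lay between hsp90b1 (-1.58) and hyou1 (-1.44), and within the TruSeq libraries pdia4 lay below both. The ER member of the Hsp90 family, hsp90b1, which in mammals folds integrins and Toll-like receptors, stood at 407, 1713 and 1610 CPM in morphant replicates 1 to 3 and at 2887, 3426 and 4854 CPM in wildtype replicates 1 to 3. The groups did not overlap, and the highest morphant library stood 40.7% below the lowest wildtype library, the widest gap of the 9 genes. Its means were 1243 ± 726 CPM in morphants and 3722 ± 1017 CPM in wildtype (SD, n = 3 each). With the kit term its log2 fold change was -2.25 (SE 0.42), or 4.76 times lower, a larger difference than that of the means. Without the kit term it was -1.58. With wildtype replicate 3 left out it was -2.997, a value that rests on morphant replicate 1 against wildtype replicates 1 and 2. The kit term then takes up the TruSeq libraries, which are all morphant. For hyou1, a large Hsp70 relative that acts as nucleotide exchange factor of the ER Hsp70, the morphant libraries held 204, 997 and 816 CPM and the wildtype libraries 1461, 1587 and 2428 CPM. Its morphant replicate 1 was far below all other libraries, and the groups did not overlap. Its means were 673 ± 415 CPM in morphants and 1825 ± 526 CPM in wildtype. With the kit term the log2 fold change of hyou1 was -2.16 (SE 0.44), 4.47 times lower, against -1.44 without that term. It was -2.94 with wildtype replicate 3 left out, again from morphant replicate 1 alone against wildtype replicates 1 and 2. The ER Hsp70 gene itself, hspa5, was not analysed here.

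The 4 cofactors of the ER Hsp70 had log2 fold changes between -1.56 and -1.51, a range that also held calr and pdia6. The J-domain protein gene dnajb11, which delivers unfolded chains to Hsp70, had 71.8, 213 and 131 CPM in morphant replicates 1 to 3 and 278, 340 and 350 CPM in wildtype replicates 1 to 3. Its wildtype libraries lay close together (323 ± 39.2 CPM), the morphant libraries were spread (138 ± 70.8 CPM), and the log2 fold change was -1.56 (SE 0.42). The partner of dnajb11 in mammals, sdf2l1, had 56.7, 143 and 95.9 CPM in morphants and 175, 256 and 260 CPM in wildtype. It followed the same order of libraries as dnajb11, with a log2 fold change of -1.52 (SE 0.39). The paralogs dnajc3a and dnajc3b encode J-domain proteins known in mammals as the P58IPK co-chaperone. In morphants dnajc3a had 38.1, 94.5 and 91.6 CPM, and in wildtype 122, 145 and 225 CPM. Its log2 fold change was -1.54 (SE 0.32). In morphants dnajc3b had 50.9, 149 and 114 CPM, and in wildtype 193, 235 and 254 CPM, with a log2 fold change of -1.51 (SE 0.40). Both paralogs were lower in all morphant libraries, but no source used here says how reads common to paralogs were counted, and their separate values are uncertain to that degree.

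The lectin chaperone gene calr (calreticulin), which holds glycoproteins and buffers calcium in the ER lumen, had 105, 353 and 351 CPM in morphant replicates 1 to 3 and 505, 509 and 619 CPM in wildtype replicates 1 to 3. Its means were 269 ± 143 CPM in morphants and 544 ± 64.4 CPM in wildtype, and the wildtype libraries lay close together. The log2 fold change was -1.54 (SE 0.43). With wildtype replicate 3 left out it was -2.31, which rests on morphant replicate 1 against wildtype replicates 1 and 2.

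Of the disulfide isomerases, pdia4 had the larger difference. For pdia4 the values were 235, 489 and 707 CPM in morphants and 1004, 1292 and 1766 CPM in wildtype. Here morphant replicate 3 was the highest of its group, and the log2 fold change was -1.93 (SE 0.36), 3.80 times lower. For pdia6, a known partner and attenuator of the Ire1 sensor in mammals, the values were 78.8, 211 and 214 CPM in morphants and 265, 243 and 567 CPM in wildtype. The gap between the groups was the narrowest of the 9 genes, with the highest morphant library 12.1% below the lowest wildtype library, and wildtype replicate 3 alone was far above the other wildtype libraries. The log2 fold change of pdia6 was -1.55 (SE 0.29). With scaling by library totals alone, pdia6 overlapped, with 245 CPM in morphant replicate 3 and 219 CPM in wildtype replicate 2, and the other 8 genes stayed lower in every morphant library (3.28% of all genes tested under that scaling).

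**Figure D1:**
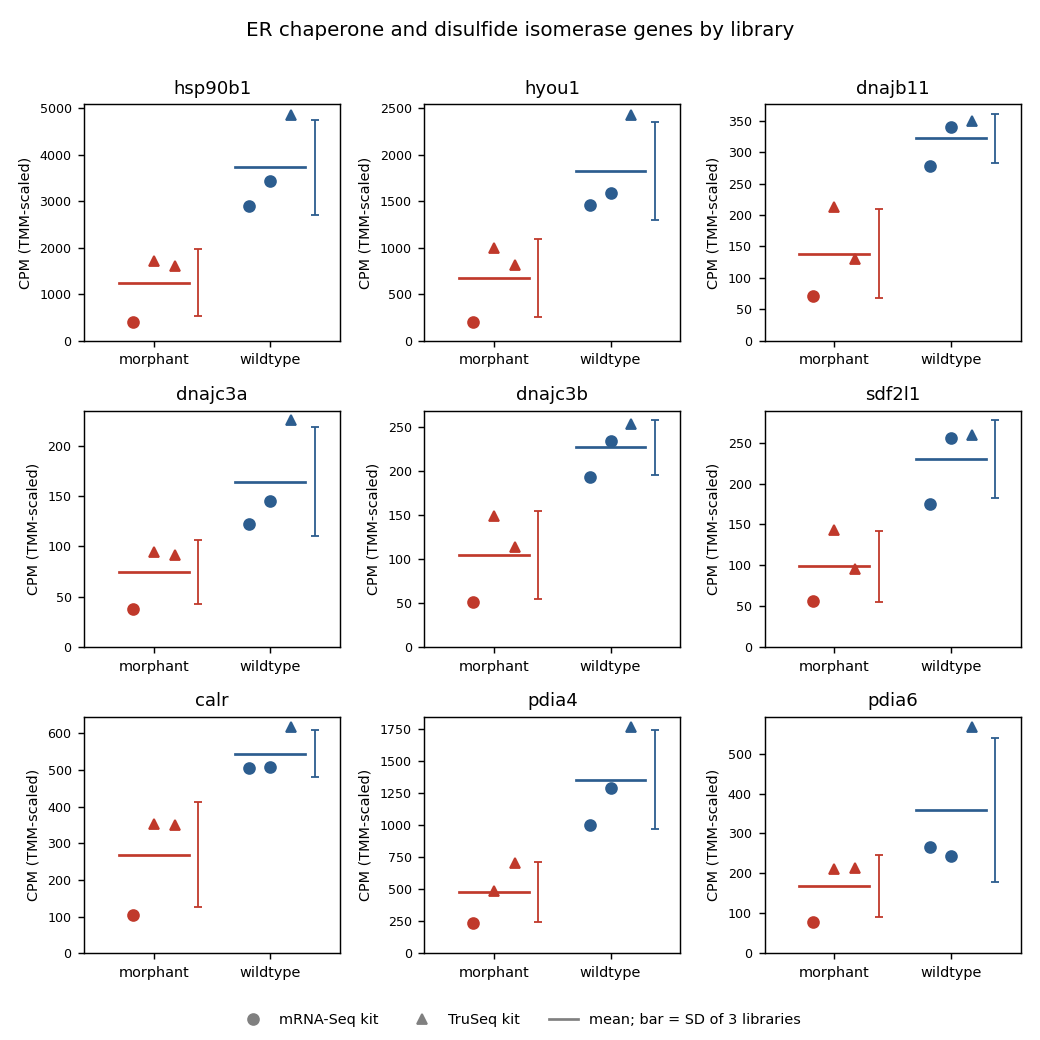
TMM-scaled CPM of each of the 9 genes in every library, morphant libraries on the left of each panel and wildtype libraries on the right, with circles for the mRNA-Seq kit and triangles for the TruSeq kit; horizontal lines are means and vertical bars the SD of 3 libraries. In every panel all morphant points lie below all wildtype points, and the lowest point is the morphant library of the mRNA-Seq kit.

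Morphant replicate 1 was the lowest library for 9 of 9 genes, with TMM scaling and with scaling by library totals alike. The rest of the order depended on the scaling. Wildtype replicate 3 was the highest library for 9 of 9 genes with TMM and for 6 of 9 by library totals. Morphant replicate 2 exceeded morphant replicate 3 for 7 of 9 with TMM, pdia4 and pdia6 being the exceptions, and for 3 of 9 by library totals. Wildtype replicate 2 exceeded wildtype replicate 1 for 8 of 9 with TMM and for 6 of 9 by library totals. Summed, the 9 genes took 0.16, 0.40 and 0.47% of all counts in morphant replicates 1 to 3 and 0.69, 0.72 and 0.93% in wildtype replicates 1 to 3, a mean of 0.344 ± 0.164% in morphants and 0.779 ± 0.132% in wildtype (SD, n = 3 each).

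The difference between the groups was larger in the mRNA-Seq than in the TruSeq libraries. Within the mRNA-Seq libraries, where the only morphant library is replicate 1, the log2 ratio of mean CPM was -2.96 for hsp90b1, -2.90 for hyou1, -2.29 for pdia4, -2.27 for calr and -1.69 for pdia6. Within the TruSeq libraries, where the only wildtype library is replicate 3, it was -1.55 for hsp90b1, -1.42 for hyou1, -1.56 for pdia4, -0.81 for calr and -1.42 for pdia6. The ratios of the 9 genes lay between -2.96 and -1.69 in the mRNA-Seq kit and between -1.56 and -0.81 in the TruSeq kit. Their negative sign in each kit follows from the groups not overlapping in these genes, and nothing is read from it. By log2 ratio the disulfide isomerase pdia6 had the smallest difference between the groups in the mRNA-Seq kit, and calr in the TruSeq kit. With 1 library on one side of each kit, the spread behind these ratios is not known.

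The level of each gene relative to the others was read from RPKM that the authors deposited. These are read counts scaled by gene length and by a factor for each library. That factor was not the library total alone. By library totals pdia6 overlapped between the groups, but in RPKM its highest morphant library (102) lay below its lowest wildtype library (117). By RPKM hsp90b1 was the most abundant of the 9 in all 6 libraries, with 376 ± 218 RPKM in morphants and 1127 ± 328 RPKM in wildtype (SD, n = 3 each). Next came hyou1 with 140 ± 85.7 RPKM in morphants and 380 ± 116 RPKM in wildtype, second in every library but morphant replicate 1, where pdia4 was second. The genes pdia4 (90.04 ± 44.2 RPKM in morphants, 255 ± 77.5 RPKM in wildtype), calr (105 ± 54.8 RPKM in morphants, 211 ± 28.4 RPKM in wildtype) and pdia6 (79.7 ± 36.1 RPKM in morphants, 170 ± 88.4 RPKM in wildtype) followed. Their order varied between libraries, and differences between them were not tested. The cofactor genes sdf2l1, dnajb11, dnajc3a and dnajc3b came last, with means between 25.3 and 32.6 RPKM in morphants and between 55.0 and 75.9 RPKM in wildtype. Their order among themselves also varied between libraries and was not tested.

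The make-up of the chaperone transcripts is given as a description only, since the 9 genes were chosen on this contrast and the shares were not tested. Of the RPKM summed over the 9 genes, hsp90b1 held 35.2, 42.5 and 42.3% in morphant replicates 1 to 3 and 46.0, 47.2 and 47.0% in wildtype replicates 1 to 3. Its share was lower in every morphant library. The share of calr was higher in every morphant library, with 11.7, 11.2 and 11.9% in morphants and 10.3, 9.02 and 7.69% in wildtype. That of dnajc3a was also higher in every morphant library (4.121, 2.919 and 3.002% in morphants, 2.424, 2.492 and 2.717% in wildtype). The shares of the other 6 genes overlapped between the groups. These shares sum to a fixed whole, so a lower share of hsp90b1 raises the others. The lower share of hsp90b1 restates that its log2 fold change was the lowest of the 9 (-2.25).

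**Figure D2:**
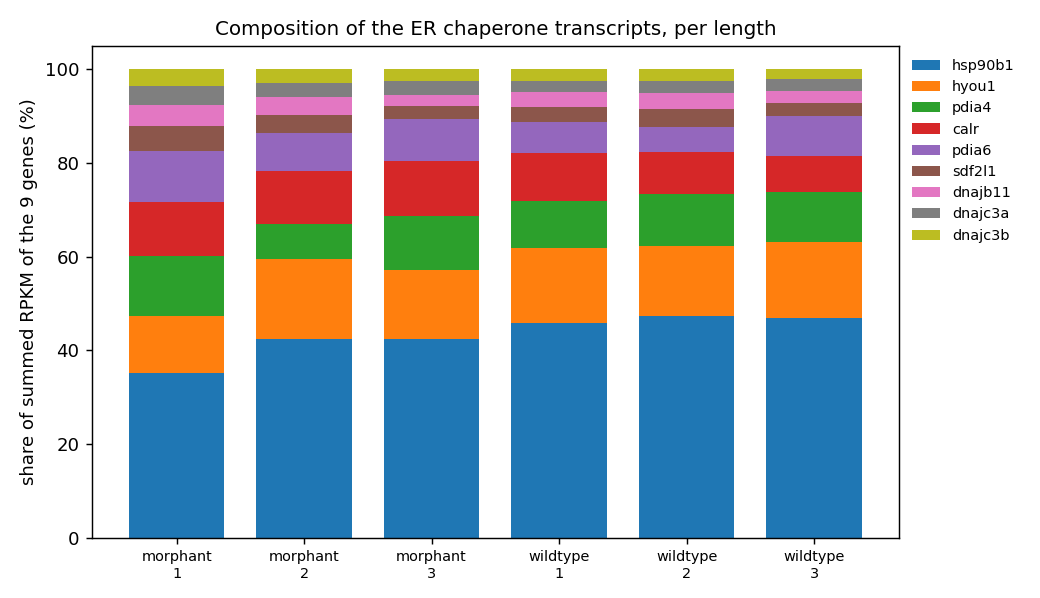
Share of each of the 9 genes in their summed deposited RPKM, as stacked bars in percent, for the morphant libraries on the left and the wildtype libraries on the right. The hsp90b1 segment at the base is 35.2 to 42.5% in morphants and 46.0 to 47.2% in wildtype.

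The other genes of ER protein folding were described from 42 genes found in the table by a list of 73 symbols, and 40 of them were tested. None passed the threshold of 0.05 on the adjusted p of edgeR's quasi-likelihood test, in which 0 of 18033 genes passed (0%). At an unadjusted p under 0.05, 13 were lower and 1 was higher, where 4.92% of all genes tested were lower and 7.62% higher. DESeq2 called 3 of the list lower and 0 higher, where it called 1.02% of all genes lower and 0.739% higher. The median log2 fold change was -0.33, against 0.07 for all genes tested, with 23 genes negative and 17 positive. By the count of libraries, 10 of the 40 were lower in every morphant library and 1, DNAJC10, was higher in every morphant library, where 5.78% of all genes tested were lower and 7.76% higher. With that other scaling, by library totals alone, 7 were lower and 4 higher at an unadjusted p under 0.05, and the median was 0.05 where all genes tested had 0.46.

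The 3 genes that DESeq2 called all encode soluble proteins of the ER lumen. MANF, a secreted trophic factor induced by ER stress in mammals, had 66.6, 239 and 159 CPM in morphants and 293, 376 and 524 CPM in wildtype. This was a log2 fold change of -1.86 (SE 0.39), with an adjusted p of 0.393 in edgeR and 0.00844 in DESeq2. CRELD2, another ER stress-inducible gene in mammals, had 24.9, 51.6 and 63.0 CPM in morphants and 99.0, 113 and 132 CPM in wildtype, or -1.64 (SE 0.36) as a log2 fold change, with an adjusted p of 0.393 in edgeR and 0.0141 in DESeq2. CNPY3, whose mammalian protein is a cofactor of the hsp90b1 product in folding Toll-like receptors, had 30.2, 105 and 53.3 CPM in morphants and 137, 167 and 215 CPM in wildtype. Its log2 fold change of -1.89 (SE 0.43) came with adjusted p-values of 0.393 in edgeR and 0.0170 in DESeq2. For all 3 genes, as for the 9 chaperone genes, the groups did not overlap.

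Lower in every morphant library, but called by neither test, were 7 genes: the membrane-bound lectin chaperone gene CANX, the glycoprotein folding sensor gene UGGT1, the lectin gene os9, the oxidase gene ERO1A, the proline isomerase gene FKBP2, the peroxiredoxin gene PRDX4 and tmx3b, of the thioredoxin-related membrane proteins. CANX, the membrane counterpart of calr, had 624, 1522 and 873 CPM in morphants and 1774, 1988 and 2043 CPM in wildtype, and its log2 fold change of -1.18 (SE 0.38) missed the threshold in edgeR (adjusted p = 0.393). UGGT1 had 65.3, 83.2 and 76.6 CPM in morphants and 131, 138 and 133 CPM in wildtype, a small spread in both groups beside a value of -0.89 (SE 0.29) whose adjusted p in edgeR was 0.393. The log2 fold changes of os9 and ERO1A were -1.47 and -1.61, although ERO1A had only 1.17 ± 0.290 CPM in morphants and 3.19 ± 1.12 CPM in wildtype. FKBP2, PRDX4 and tmx3b had -0.97, -0.80 and -0.46. PPIB, a proline isomerase of the secretory pathway, and CNPY1 had log2 fold changes of -0.92 and -1.61, and their groups overlapped.

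The 11 disulfide isomerase relatives of the list, grouped after their values were seen, spread on both sides of 0, with 6 negative and 5 positive. Relatives that found no row by symbol, pdia3 and p4hb among them, are not among the 11. The lowest was pdia2, a disulfide isomerase like pdia4 and pdia6, with 36.7, 232 and 103 CPM in morphants and 199, 292 and 262 CPM in wildtype. Its log2 fold change of -1.69 (SE 0.66) lay between those of pdia4 and pdia6, but its groups overlapped through morphant replicate 2, and its adjusted p was 0.393 in edgeR. The log2 fold changes of the other relatives were -1.08 for TMX1, -0.80 for ERP44, -0.46 for tmx3b, -0.19 for PDIA5, -0.16 for TXNDC5, 0.02 for pdia8, 0.11 for TXNDC12, 0.35 for DNAJC10, 0.39 for pdia7 and 0.74 for TXNDC16. CNPY4 had a positive value of 1.65 (SE 0.56), with an adjusted p of 0.393 in edgeR, and stood at 18.1, 4.20 and 12.1 CPM in morphants and 3.22, 5.44 and 3.46 CPM in wildtype. Morphant replicate 2 was within the wildtype values of CNPY4, and the other morphant libraries were above them. The 4 proline isomerase genes of the FKBP family, also grouped after their values were seen, were split in sign. FKBP2 had -0.97, with 60.2, 93.5 and 58.0 CPM in morphants and 114, 163 and 126 CPM in wildtype, while FKBP7, FKBP9 and FKBP14 had 0.76, 1.103 and 1.08, each with morphant replicate 2 below every wildtype library.

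**Figure D3:**
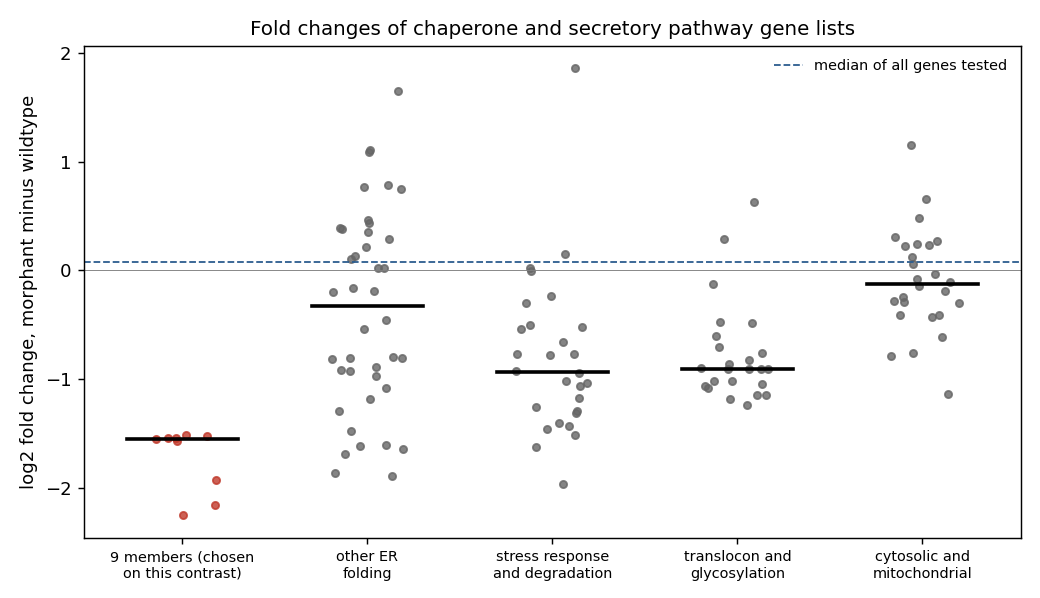
Log2 fold change (morphant minus wildtype) of the 9 genes and of 4 other gene lists, 1 point per gene, with a black line at the median of each list and a dashed line at the median of all genes tested. The 9 genes, chosen on this contrast, lie between -2.25 and -1.51, other ER folding genes have a median of -0.33, and cytosolic and mitochondrial chaperones a median of -0.12.

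Among 28 stress sensors and degradation factors of the ER, 25 had negative log2 fold changes and the median was -0.93, with 10 lower and 1 higher at an unadjusted edgeR p under 0.05 (4.92% and 7.62% of all genes tested) and 1 called lower by DESeq2 (1.02%). The median was -1.57 with wildtype replicate 3 left out, where the kit term leaves morphant replicate 1 against wildtype replicates 1 and 2. It was -0.61 with morphant replicate 1 left out, which leaves morphant replicates 2 and 3 against wildtype replicate 3. By library totals it was -0.56, where all genes tested had 0.46. The gene that DESeq2 called was DERL3, a channel component of ER-associated degradation, with 10.9, 26.3 and 24.9 CPM in morphants and 40.9, 66.7 and 79.3 CPM in wildtype. The log2 fold change of DERL3, -1.96 (SE 0.38), came with adjusted p-values of 0.393 in edgeR and 0.00375 in DESeq2. SYVN1 and SEL1L, the ubiquitin ligase and its adaptor in the same process, had log2 fold changes of -1.18 and -1.31. Of 24 genes of the translocon, signal peptidase and oligosaccharyltransferase, 22 were negative and the median was -0.91, with 11 lower and 0 higher at an unadjusted edgeR p under 0.05, beside the same shares of all genes, and 0 called by DESeq2. In this list SRPRA, RPN1 and TRAM1 had -1.08, -1.01 and -1.06. Of the 24, 6 were lower and 1 higher in every morphant library, beside 5.78% and 7.76% of all genes tested. The sum of the 24 in morphant replicate 2, 6414 CPM, lay within the wildtype range of 6099 to 8038 CPM. Of 26 cytosolic and mitochondrial chaperones, 16 were negative and the median was -0.12, and 0 reached an unadjusted edgeR p under 0.05 or a call in DESeq2. The cytosolic Hsp90 gene HSP90AB1 had 4334, 8267 and 7213 CPM in morphants and 6623, 7928 and 10765 CPM in wildtype, overlapping groups with a value of -0.61 (SE 0.28) and an adjusted p of 0.394 in edgeR, where hsp90b1 of the ER had -2.25. HSPA8 (ENSDARG00000068992), the cytosolic Hsp70, had -0.76. Whether these lists differ from each other was not tested.

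Genes with the profile most like that of the 9 were sought among 14179 other tested genes with a symbol, by the root mean square difference of centred log2(CPM + 1) over the 6 libraries. The 5 closest were adgre5b.3 (0.101), cryba1l2 (0.143), ENSDARG00000092578 (0.144), MANF (0.144) and mep1a.1 (0.159), where the median of all these genes was 0.972 and the 9 genes themselves lay between 0.148 and 0.277. Of the 5, MANF is the ER gene described above. The closest, adgre5b.3, named as an adhesion receptor of the Adgre5 family, had 55.8, 147 and 138 CPM in morphants and 194, 257 and 320 CPM in wildtype. The genes cryba1l2, ENSDARG00000092578 and mep1a.1 averaged under 10 CPM in each group.

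The chaperone sums were set beside the summed markers of cell types that the sort could hold, library by library. The 9 genes summed to 1247, 4362 and 4130 CPM in morphant replicates 1 to 3 and to 6891, 8033 and 11323 CPM in wildtype replicates 1 to 3. Leukocyte markers followed the same order of libraries within wildtype and were lower in morphant replicates 1 and 3, but not in morphant replicate 2. In that library leukocyte markers stood at 0.881 of their level in wildtype replicate 3, made with the same kit, and the 9 chaperone genes at 0.385. In morphant replicate 3 the same ratios were 0.206 for leukocyte markers and 0.365 for the chaperone genes. Morphant replicate 1, over the mean of wildtype replicates 1 and 2 of its own kit, had 0.130 for leukocyte markers and 0.167 for the chaperone genes. Single chaperone genes differed in direction between morphant replicates 2 and 3. From morphant replicate 2 to 3 dnajb11 went from 213 to 131 CPM and sdf2l1 from 143 to 95.9 CPM, while pdia4 went from 489 to 707 CPM. With TMM scaling 7 of the 9 genes were higher in morphant replicate 2, and by library totals 3 of 9. Over the marker list, 29 of 29 tested genes had a negative log2 fold change, 3 were lower in every morphant library (5.78% of all genes) and none was at 0 in either group.

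Summed cardiomyocyte markers were also lower in every morphant library, at 0.593 and 0.561 of wildtype replicate 3 in morphant replicates 2 and 3. In morphant replicate 1 they stood at 0.314 of the mean of wildtype replicates 1 and 2. Of these genes 11 of 11 were negative and 8 were lower in every morphant library (5.78% of all genes tested). MYL7, whose promoter drives the reporter, was among these 11, with 385, 237 and 268 CPM in morphants and 1004, 700 and 433 CPM in wildtype. Within wildtype, the cardiomyocyte marker sum was highest in replicate 1 and lowest in replicate 3. The sum of the 9 chaperone genes was lowest in replicate 1 and highest in replicate 3, although pdia6 alone was lowest in replicate 2 (243 CPM). By library totals wildtype replicate 3 was the highest library for 6 of the 9.

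Hatching gland markers, of a gland that secretes the enzymes of hatching, summed to 650, 1999 and 1302 CPM in morphants and 1453, 2162 and 2256 CPM in wildtype over 6 genes. CD63, which is not particular to that gland, made up 43.5, 90.1 and 52.7% of the sum in morphants and 92.1, 92.8 and 87.0% in wildtype, and had a log2 fold change of -1.61. The other 5 hatching gland markers all had positive log2 fold changes and together stood at 367, 198 and 616 CPM in morphants and 115, 156 and 294 CPM in wildtype. Notochord markers summed to 236, 18.5 and 155 CPM in morphants and 31.6, 23.8 and 22.1 CPM in wildtype over 4 tested genes, all with positive log2 fold changes. The part of leukocytes, cardiomyocytes, hatching gland and notochord in the lower chaperone values was not tested. Markers of skeletal muscle (10 of 10), neural cells (16 of 16) and endoderm, liver and yolk syncytial layer (9 of 9) all had positive log2 fold changes, those of epidermis had 12 of 14 positive, of endothelium 1 of 7 and of erythroid cells 3 of 9. Higher in every morphant library were 1 skeletal muscle, 6 neural and 0 endoderm, liver and yolk genes, where 7.76% of all genes tested were. The sums of skeletal muscle, neural, epidermal and endoderm markers, like those of the notochord, were highest in morphant replicates 1 or 3. Endoderm, liver and yolk markers summed to 10274, 235 and 407 CPM in morphants and to 166, 294 and 180 CPM in wildtype. The part of these cell types in the chaperone values was not tested either.

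**Figure D4:**
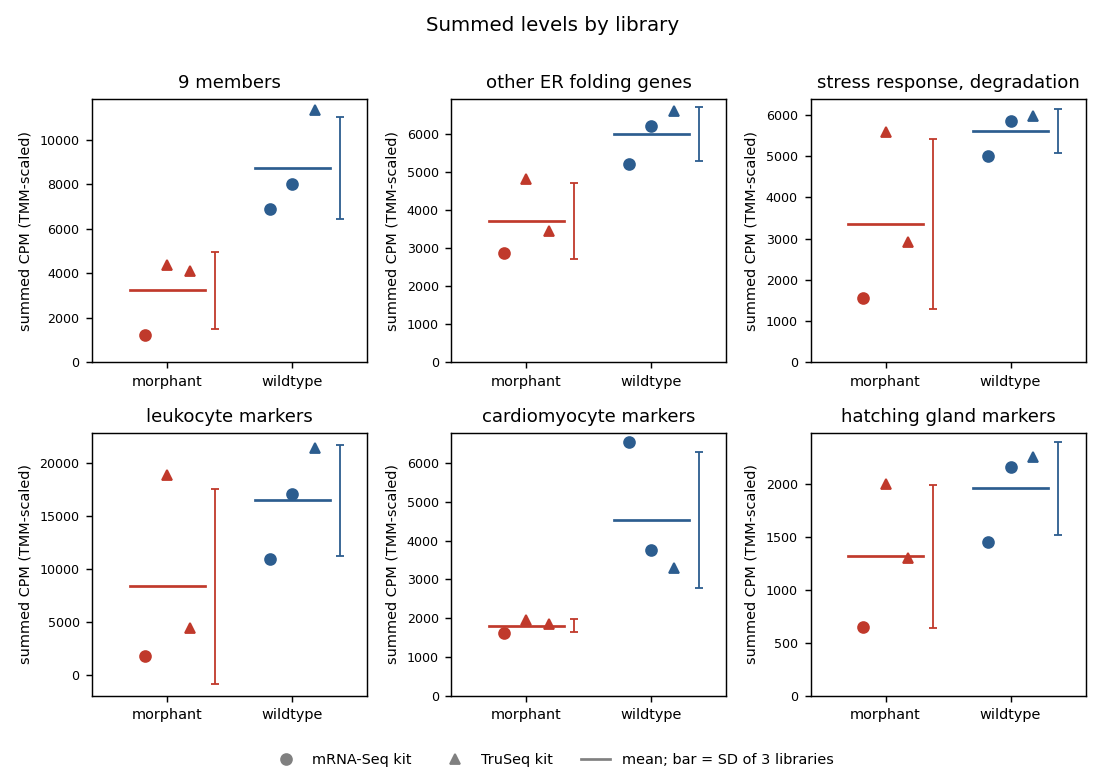
Summed TMM-scaled CPM per library of the 9 genes, of 2 related gene lists and of 3 marker lists, morphant libraries on the left of each panel, circles for the mRNA-Seq and triangles for the TruSeq kit, with the mean and SD of 3 libraries. The morphant triangle at 18889 CPM in the leukocyte panel is replicate 2, which stands at 4362 CPM in the panel of the 9 genes, below the lowest wildtype library at 6891 CPM.

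Leaving out morphant replicate 2 raised the count of calls across the table. Without it edgeR called 11.5% of the 19034 genes then tested lower and 8.19% higher, and among other ER folding genes 17 of 40 lower and 3 higher. MANF then had an adjusted p of 0.0110, CANX of 0.0167 and CNPY4 of 0.0221 in edgeR. The median log2 fold change of the 9 genes was then -1.75. Without morphant replicate 1, the lowest library for every one of the 9, their median was -1.33, with hsp90b1 at -1.60, hyou1 at -1.47, pdia4 at -1.62 and calr at -0.87. With the kit term these values rest on morphant replicates 2 and 3 against wildtype replicate 3. Without wildtype replicate 3 the median of the 9 genes was -2.15, with calr at -2.31, dnajb11 at -2.15 and dnajc3b at -2.11. These values rest on morphant replicate 1 against wildtype replicates 1 and 2.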

How the data were processed

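The 9 genes and all gene lists were chosen with earlier results of these data known. Raw counts by Ensembl gene identifier and RPKM were deposited for each of the 6 libraries, per the file headers. The RPKM were proportional to the count plus 1 in 100% of genes within 1%. Zv9 is the build and BWA, CASAVA 1.7.0 and DESeq are the tools listed, without their roles, in the submitters' processing notes. How reads were counted, and on which annotation and strand, is not given in the sources used here. Overlapping genes and paralogs are uncertain for that reason. Columns were matched to samples by library name. Symbols came from a name table that matched 19189 of 27456 identifiers, and lists were matched by symbol without regard to case.

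Counts were tested with edgeR 4.0.16 (R 4.3.3), with TMM scaling, filterByExpr (18033 genes left), terms for kit and group, the two-sided quasi-likelihood F test with 3 residual degrees of freedom, and Benjamini-Hochberg adjustment at 0.05. The biological coefficient of variation was 0.470. CPM use TMM-scaled totals, fold changes a prior count of 0.125, and SE is the fold change over the root of F. DESeq2 1.42.0 and limma-voom (limma 3.58.1) were alternatives, beside other scaling, no filter, no kit term, each kit alone and each library left out. The deposited RPKM were tried in place of CPM after the data were seen. The fits were tested on simulated data.

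Genes named are the 9, the 10 genes of smallest p in the list of other ER folding genes, CANX among them, 3 of each related list, the 5 nearest profiles, the reporter gene and the most abundant markers, of which a selection is described. The disulfide isomerase relatives, the FKBP genes, PRDX4 and hsp90aa1.1 were named after their values were seen.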

Additional observations from a re-analysis of the deposited data

How the results depend on the processing

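All 126 values of the 9 genes under 14 alternatives were negative. This is not read as support, since the 9 genes were chosen on this contrast and their groups did not overlap with TMM scaling. The median log2 fold change of the 9 genes ran from -2.17 within the mRNA-Seq libraries to -1.17 with scaling by library totals. It was -1.22 without the kit term, and -2.15 to -1.33 when each library was left out. The lowest and highest of these, without wildtype replicate 3 and without morphant replicate 1, nearly repeat the fits within each kit. With deposited RPKM the median of the 9 genes was -1.29, as a difference of mean log2 RPKM between the groups that also had no kit term. Scaling by totals moved the median of all genes tested to 0.46, and the unadjusted edgeR p lay under 0.05 for 2972 genes higher and 403 lower, against 1374 higher and 887 lower with TMM. The main count of 0 calls in edgeR became 293 in DESeq2, 44 with no filter on low counts, 4352 within the mRNA-Seq libraries, where 1 morphant library stands against 2 wildtype libraries and is assumed to vary as they do, 1 within the TruSeq libraries, and 0 to 3745 when each library was left out, with 3745 reached without morphant replicate 2. It stayed 0 in limma-voom. Other ER folding genes called were 0, but 3 in DESeq2, 16 within the mRNA-Seq libraries and 0 to 20 when each library was left out. Over the stress response, translocon and cytosolic and mitochondrial lists, 28, 24 and 26 genes were tested. With all 6 libraries, genes called over these lists were 0, but 1 in DESeq2. Within the mRNA-Seq libraries genes of these lists were also called, but with only 1 morphant library there that count is not read. Genes called over these lists were 0 to 35 when each library was left out, with 35 reached without morphant replicate 2. Without that library 11.5% of all genes tested were called lower and 8.19% higher. The causes were not tested. No paired analysis was possible because the labels number no replicates. The replicate numbers used here follow the order of the library names within each group and tie no morphant library to a wildtype library. Each of the 9 genes had 614 or more counts per library. The highest morphant library stood at 2.48 to 4.88 times the lowest, and the highest wildtype library at 1.22 to 2.33 times the lowest. What limits the precision of the 9 genes was not tested.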

Other observations

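Among cytosolic chaperones, hsp90aa1.1, the Hsp90 gene used in zebrafish skeletal muscle for myosin folding, had values opposite in sign to those of hsp90b1 of the ER. Its level was 600, 106 and 647 CPM in morphant replicates 1 to 3 and 188, 152 and 267 CPM in wildtype replicates 1 to 3, and the log2 fold change of 1.16 (SE 0.66) had an adjusted p of 0.417 in edgeR. Its morphant replicates 1 and 3 lay above the wildtype range and replicate 2 below it, the pattern that summed skeletal muscle markers also had, with 2347, 349 and 2997 CPM in morphants and 460, 447 and 658 CPM in wildtype. The gene was picked after its values were seen, and the part of muscle cells in its level was not tested.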
